A study of Mus musculus with 16 samples.

Results

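The accessible landscape of wild-type mouse hematopoietic stem and progenitor cells (HSPCs) was taken as the regions with an ATAC-seq peak in at least 3 of the 4 WT libraries. Peaks of the 4 WT lists that shared at least 1 bp were merged into 218268 regions, of which 74720 met this rule. Merging the lists of all 16 libraries of the series gave 296215 regions. The series holds 4 libraries for each of WT, P300KO, TET2KO and P300KO_TET2KO, a design made to follow the loss of p300 in Tet2-deficient cells, and only the WT lists are described here. The WT mice carried floxed Ep300 alleles (Ep300 fl/fl) with no Cre, and received poly(I:C) as the mice of the other genotypes did. These cells are thus the study's injected Cre-free controls rather than cells of an untreated mouse. Per the labels, HSPCs were sorted from bone marrow, 200000 per replicate, and each replicate pooled cells of 2 age-matched mice of 1 genotype. The cells were frozen, and 50000 viable cells per library were thawed and tagged with a transposase that cuts open DNA. The labels and the study's methods call the cells HSPCs, and a figure legend of the study calls those behind the ATAC-seq peaks LSK cells, a gate that takes lineage-negative cells with the surface proteins Sca-1 and c-Kit.

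DNA that is wrapped tightly around nucleosomes resists the transposase, while promoters in use, enhancers and insulators are kept open by the proteins bound there. Stem and progenitor cells are known to hold open the genes that keep them multipotent and, at lower levels, some genes of the blood lineages they can give rise to. Kit is the receptor for stem cell factor, Cd34 a surface sialomucin of progenitors, and Gata2, Spi1 (PU.1) and Runx1 are transcription factors that early blood cells need. Spi1 drives myeloid and lymphoid fates, Gata1 and Klf1 drive the erythroid fate, and Cebpe drives late granulocyte maturation.

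All 5 of these markers had an open promoter in 4 of 4 WT lists. Their strongest members over 500 bp from any annotated transcription start site were chosen to show the open sequence around them, and each had a peak in 4 of 4 lists. The Gata2 member lies 715 bp from an internal start of the annotation and the other 4 over 3 kb from any start. The sequences below are 50 bases either side of the summit, the position of highest signal, on the plus strand of mm10 (GRCm38). Capitals mark letters that match any of the 22 strings searched in these windows, which are described further on. The Kit window lies at chr5:75582100-75582200 in an intron of Kit, the Cd34 window at chr1:194879715-194879815 in intergenic sequence, the Gata2 window at chr6:88203155-88203255 inside Gata2, the Spi1 window at chr2:91101523-91101623 in an intron of Spi1, and the Runx1 window at chr16:92801692-92801792 in an intron of Runx1.
Kit: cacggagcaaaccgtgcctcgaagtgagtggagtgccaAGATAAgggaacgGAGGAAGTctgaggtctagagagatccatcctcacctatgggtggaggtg
Cd34: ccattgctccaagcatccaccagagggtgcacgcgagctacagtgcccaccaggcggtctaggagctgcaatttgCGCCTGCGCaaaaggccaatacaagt
Gata2: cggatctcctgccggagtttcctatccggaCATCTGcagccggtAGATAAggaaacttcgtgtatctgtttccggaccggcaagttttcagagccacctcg
Spi1: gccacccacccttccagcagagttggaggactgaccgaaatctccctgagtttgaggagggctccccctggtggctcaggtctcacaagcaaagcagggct
Runx1: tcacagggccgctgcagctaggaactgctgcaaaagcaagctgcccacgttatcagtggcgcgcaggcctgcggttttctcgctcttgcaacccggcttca
The Kit window held the Gata string AGATAA followed by GAGGAAGT, the form of the Ets string preferred by Spi1. The Gata2 window held CATCTG, an E-box string of Tal1 read on the other strand, 8 bases before AGATAA. The Cd34 window held an Nrf1 string, and the Spi1 and Runx1 windows held none of the 22.

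The 4 lists differed in length, and replicate 1 stood apart. The lists of WT replicates 1 to 4 held 98544, 110055, 131041 and 132722 peaks, which covered 32.01, 41.1, 57.4 and 58.3 Mb. A −log10 q (the authors' p of a summit adjusted over its list) of 2 or more was reached by 45.0% of peaks in replicate 1, 63.2% in replicate 2, 95.4% in replicate 3 and 94.8% in replicate 4. In the labels, a merged peak file is named for replicates 1 and 2 alone, and no source used here says what else set them apart from replicates 3 and 4. The lists hold no read counts, so the depth of each library is unknown and no counting interval can be given. A region or gene without a peak was not detected in that library, which is not the same as closed chromatin.

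Of the 74720 members, 44849 had a peak in 4 lists and 29871 in 3, just inside the rule. Just outside it were 41868 regions with a peak in 2 lists, and 101680 regions were seen in 1 list. Replicate 1 had a peak in 50515 members (67.6%), replicate 2 in 69456 (93.0%), replicate 3 in 74505 (99.7%) and replicate 4 in 74533 (99.7%). Of the members in 3 lists, 24205 (81.0%) lacked a peak in replicate 1 and 5264 lacked one in replicate 2. Of the regions in 2 lists, 36438 (87.0%) were those of replicates 3 and 4. Membership was therefore decided mostly by replicates 1 and 2, and a rule of 2 lists among replicates 2 to 4 gave 114088 regions.

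**Figure D1:**
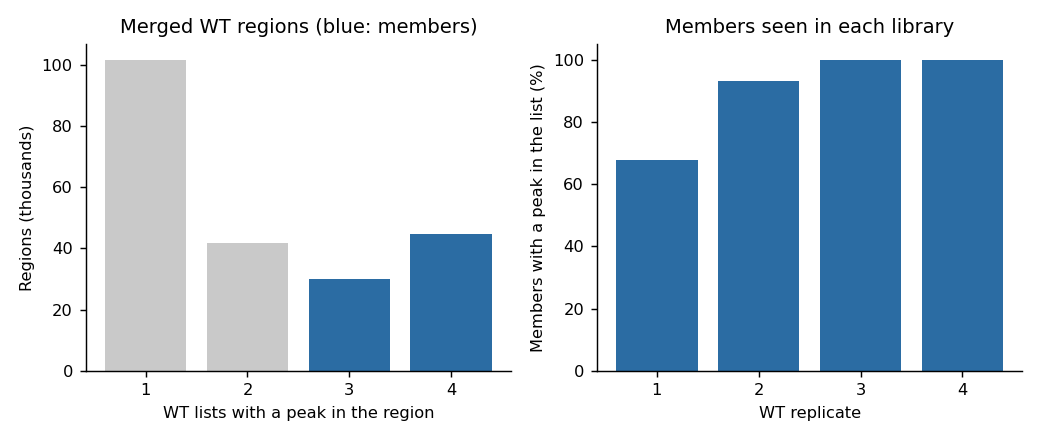
Left, number of merged WT regions (vertical axis, in units of 1000) with a peak in 1, 2, 3 or 4 of the 4 WT lists, with members of the landscape in blue. Right, share of the 74720 members (%) with a peak in each WT replicate, from 67.6% in replicate 1 to 99.7% in replicates 3 and 4.

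Strength was read from the rank of a region's best peak by −log10 p within its own list, expressed as a percentile in which 100 is the strongest peak of the list. Across members seen in both lists of a pair, the Spearman correlation of percentiles was 0.813 for replicates 1 and 3, 0.825 for 1 and 4, 0.835 for 1 and 2, 0.856 for 2 and 3, 0.866 for 2 and 4 and 0.965 for 3 and 4. Regions share base composition and mappability between lists, so these values are a description across regions. Of the strongest 10000 peaks of any list, 99.9 to 100% overlapped a peak of each other list. The lists therefore shared their strong sites and parted over weak ones: regions in 1 list had a median percentile of 20.3, those in 2 lists 30.9, those in 3 lists 49.6 and those in 4 lists 78.5. The summary over lists is given below as mean ± SD over the lists with a peak.

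The Kit promoter was the strongest marker promoter. It stood at percentiles 99.1, 97.1, 96.0 and 96.5 in replicates 1 to 4, a mean of 97.2 ± 1.36 (SD, n = 4), and its ranks were 910, 3226, 5270 and 4669. The Cd34 promoter stood at 94.9, 91.9, 92.7 and 93.8 and the Runx1 promoter that was strongest at 92.6, 93.1, 89.5 and 90.4. Gata2 was the weakest of the 5 at its promoter, with 82.2, 82.7, 76.8 and 77.9, below the other 4 genes in every list. At Spi1, the region over the outermost start was weak and had peaks in 3 lists, with a mean percentile of 33.5. The value of the Spi1 promoter came from a region with its summit 0.7 kb downstream, which stood at 94.1, 93.7, 95.6 and 95.0.

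Away from their starts, the markers differed in how many sites were open and how strong they were. Within 100 kb of the outermost annotated start there were 8 members at Kit, 11 at Cd34, 23 at Gata2, 15 at Spi1 and 21 at Runx1. Distal members, those over 3 kb from any annotated start, made up 6, 7, 17, 4 and 19 of these. At Gata2 the strongest site was not at the outermost start but inside the gene 9.3 kb downstream, the region whose sequence is printed above. It lies 715 bp from an internal annotated start and so is not among the 17 distal members. It had ranks 5027, 7910.5, 9922 and 11272 and a mean percentile of 92.9. Among members nearest to Gata2 the next strongest was a site 27.6 kb upstream with a mean percentile of 87.2. Members nearer to Rpn1 or Dnajb8 in the same window reached 91.2 at 69.8 kb upstream and 90.4 at 35.5 kb downstream. At Runx1 a region in an intron 24.4 kb downstream ranked 5192, 5019, 5271 and 6634 and exceeded the promoter region at the outermost start (mean percentile 95.3 against 89.8), and a region 58.0 kb upstream reached 93.9. At Cd34 the intergenic region 59.1 kb upstream reached 94.4 and the intronic one 4.9 kb downstream 92.0, both close to the promoter. Kit was the opposite, since its strongest site outside the promoter, 7.2 kb downstream, had a mean percentile of only 62.9. At Spi1 a region over an internal start 14.3 kb downstream stood at 91.5, 96.4, 95.3 and 95.1, and the intronic site 19.2 kb downstream at 81.3, 79.1, 85.2 and 86.3.

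**Figure D2:**
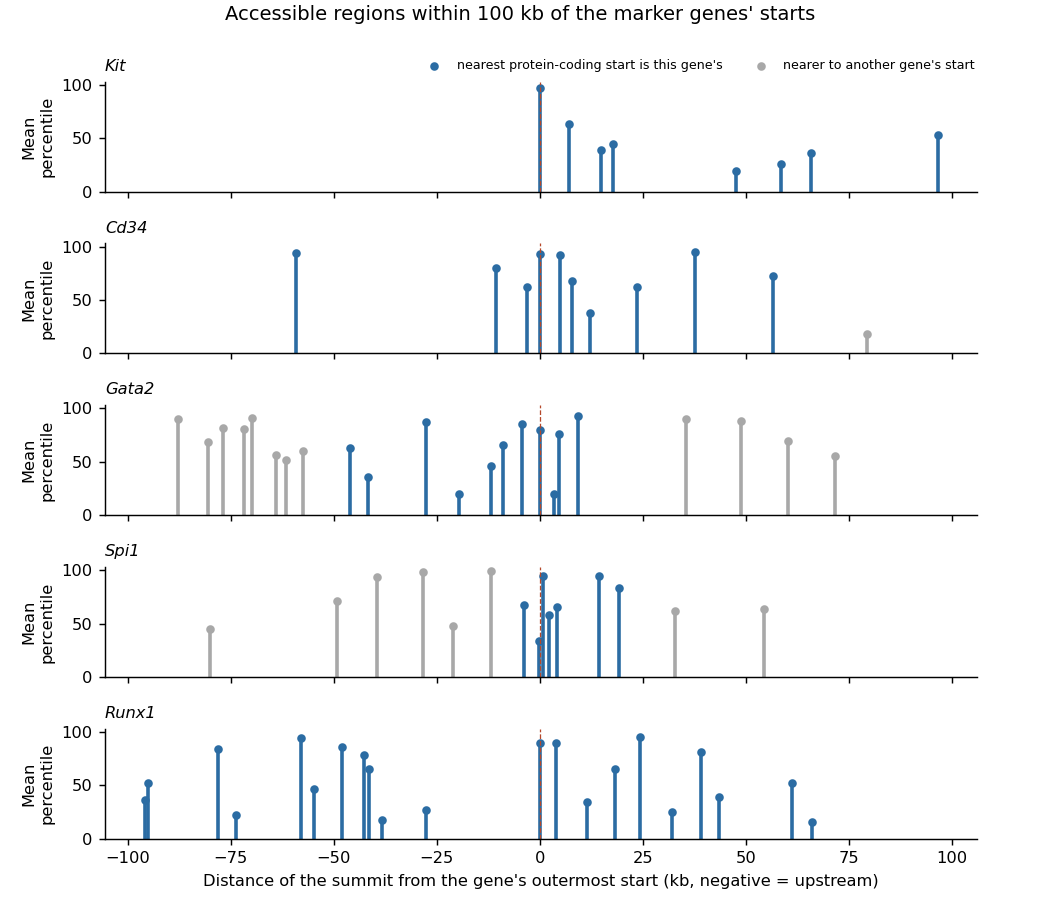
Members within 100 kb of the outermost start of Kit, Cd34, Gata2, Spi1 and Runx1, by the distance of their summit from it (kb, negative is upstream) and their mean percentile over the WT lists (0 to 100). Blue regions have the marker's start as the nearest protein-coding start and grey ones that of another gene. Kit shows a single strong site at its start, while Gata2 and Runx1 show strong sites on both sides.

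Over the whole landscape, most members were distal. Promoter members, within 3 kb of a start, numbered 31320 (41.9%), and 43400 (58.1%) were distal: 20077 in introns, 19568 between genes and 3755 in exons. The members covered 50.7 Mb, with widths from 150 to 3440 bp. Each list's own peaks were distal in 62.6, 63.5, 65.4 and 65.3% of cases, a mean of 64.2 ± 1.39% (SD, n = 4). Among promoter members 72.0% had a peak in 4 lists, against 51.3% of distal members, and without replicate 1 the distal share of members was 64.1%.

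Strength and place were tied together most closely at the top of the ranking. Members were split into 10 groups of equal size by mean percentile. In the strongest group 89.3% lay within 3 kb of a start, in the next 60.7% and in the one after 42.9%. The share then fell slowly to 29.2% in the weakest group. Median width rose from 388 bp in the weakest group to 1083 bp in the strongest, and the share seen in 4 lists from 12.8% to 100%. Distance had little bearing once a start was left behind: the median percentile was 86.6 within 500 bp of a start, 61.5 from 500 bp to 1 kb, 62.5 from 3 to 10 kb, 61.3 from 10 to 30 kb and 58.8 from 30 to 100 kb.

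**Figure D3:**
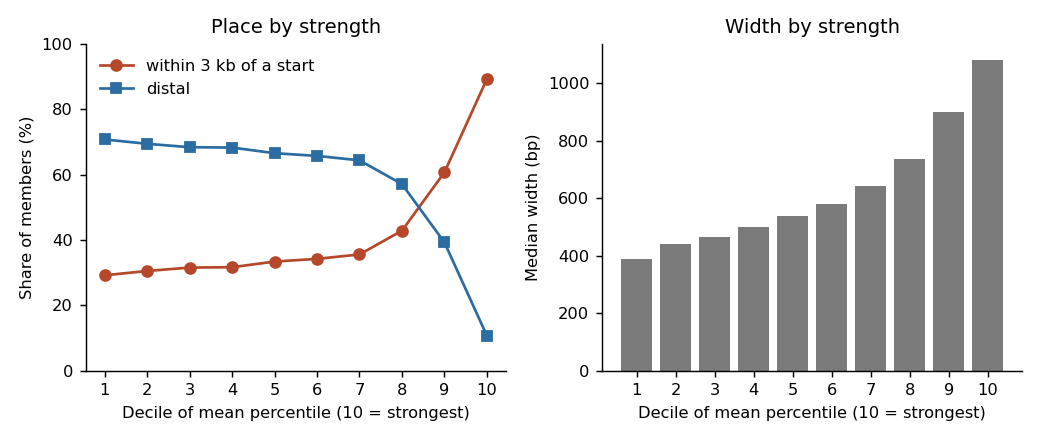
Members in 10 equal groups by mean percentile (horizontal axis, 10 is strongest). Left, share of members (%) within 3 kb of a start (red circles) or distal (blue squares). Right, median width (bp). The promoter share rises from 29.2% to 89.3% and the median width from 388 to 1083 bp.

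Chromosome 11 held the most members per Mb (45.8), followed by chromosomes 19 (39.0) and 17 (37.6), while chromosomes 3 (22.3) and 14 (22.9) held the fewest among autosomes. The X chromosome held 7.999 per Mb. Mice of both sexes were used in the study, and the sex of the mice behind each list is not stated in the sources used here.

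The strongest promoter regions lay at genes with varied roles in the cell, and none of the 5 markers was among the top 20. By mean rank, the first was at Hjurp, which loads the centromeric histone CENP-A, with ranks 27, 10, 1 and 1. Coq10b, a coenzyme Q protein, followed with ranks 83, 25, 49 and 40, and Rab11b, a GTPase of recycling endosomes, with 37, 30, 57 and 114. The first 2 are shown because they head the list, as the part of the window 50 bases either side of the summit that lies outside annotated UTRs, at chr1:88277634-88277695 for Hjurp and chr1:55052697-55052769 for Coq10b. The Rab11b window lies in an annotated UTR and is not printed.
Hjurp: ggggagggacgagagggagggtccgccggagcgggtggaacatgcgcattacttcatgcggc
Coq10b: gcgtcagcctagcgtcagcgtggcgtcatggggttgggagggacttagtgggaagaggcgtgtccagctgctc
Neither held a match to the strings. The next 7 regions were those of Tbc1d14, Cpeb4 (a regulator of mRNA translation), Napepld, Hmgb2 (a chromatin protein of the high-mobility group), Thrap3, Serf2 and Papss1. Further down the 20 were Hdac4, a histone deacetylase, Kdm4b, a histone demethylase, Kansl2, a subunit of a histone acetyltransferase complex, Mrpl17, a mitochondrial ribosomal protein, and Bcl10, an adaptor of antigen receptor signalling. The 20 regions were 875 to 1625 bp wide, their ranks ran from 1 to 313 and the authors' fold enrichment over local background from 7.71 to 26.4. Position 11, an annotated start inside Myo3a, was the exception among them, since the sequence around its summit matched the mitochondrial genome at 98.5% identity. The order depended on which libraries were used: 10 of the 20 remained when replicate 1 was left out, and 0 of the 20 when regions were ordered by fold enrichment.

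The strongest distal regions were of a different kind. Positions 1 to 13 were led by narrow peaks of very high fold enrichment, 11 of them 267 to 546 bp wide with a fold of 20.3 to 56.3, whereas positions 14 to 20 were 725 to 1581 bp wide with a fold of 8.85 to 23.9. The first was 148589 bp from the start of Epm2a, at ranks 7, 6, 2 and 5 and folds of 40.02, 42.2, 48.2 and 49.4. The second lay 10993 bp from Hic2, at ranks 10, 9, 3 and 6. The windows around 4 of the 5 highest summits without an exact copy of 50 bases elsewhere are shown because they head the list, at chr10:11492109-11492209 near Epm2a, chr16:17222305-17222405 near Hic2, chr17:70963673-70963773 near Myl12b and chr6:49236469-49236569 near Igf2bp3. The other, near Limd1 and inside Lars2, lies in an annotated UTR.
Epm2a: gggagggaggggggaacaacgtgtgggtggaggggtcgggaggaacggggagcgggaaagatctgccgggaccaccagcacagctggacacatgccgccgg
Hic2: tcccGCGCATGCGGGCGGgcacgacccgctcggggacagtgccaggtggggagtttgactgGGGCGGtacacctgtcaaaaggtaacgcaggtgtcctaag
Myl12b: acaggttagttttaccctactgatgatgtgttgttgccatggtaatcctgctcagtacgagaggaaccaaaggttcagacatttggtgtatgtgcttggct
Igf2bp3: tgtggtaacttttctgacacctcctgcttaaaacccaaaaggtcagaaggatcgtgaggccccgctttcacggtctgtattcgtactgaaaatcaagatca
The Hic2 window held an Nrf1 string and, overlapping it, GGGCGG, the string of Sp and Klf factors, and the other 3 windows held none.

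Of these 20 distal regions, 11 had a copy of at least 100 bp and 90% identity elsewhere in the genome. The region near Abcb11 (ranks 1, 1, 31 and 7) matched the mitochondrial genome at 100% over 129 bp, and the one near G6pd2 (ranks 4, 2, 431 and 53) at 98.02%. The region near Rtl10 matched an annotated ribosomal RNA gene at 100% over 140 bp. Only annotated ribosomal RNA genes were searched, so other ribosomal sequence among these regions would be missed. Of the printed regions, those near Hic2, Myl12b and Igf2bp3 had 1, 3 and 3 such copies, the best at 97.5, 94.4 and 99.4% identity. The window near Cd209a held 75 stretches of 50 bases with an exact copy elsewhere. Reads from nuclear copies, the mitochondrial genome and ribosomal DNA cannot be told apart at such sites by the peak lists, and the part this played in their ranks was not tested. A looser measure over all members used 32-base words spaced over the summit window, and took a region as repeated when its median word occurred more than once in the genome or any word occurred in the mitochondrial genome. By this measure, chosen after the data were seen, 8 of the 20 were repeated and 12 remained, among them the Hic2, Myl12b, Cd209a and Alkbh8 regions with part of their sequence found elsewhere. Over the whole landscape the same measure took 556 of 43400 distal members (1.28%) and 598 of 31320 promoter members (1.91%).

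Positions 14 to 20 had no such copies. They lay nearest to Wnt7b, a Wnt ligand, Ccne1, the cyclin that takes cells into S phase, Zfp395, Elovl5, Trappc9, Ccnl1 and Arhgap12. The Ccne1 site was 20661 bp from that gene's start, at ranks 373, 444, 403 and 322, and the Zfp395 site 13973 bp from its start, at ranks 938, 437, 176 and 64. Their windows, at chr7:38084971-38085071 and chr14:65343817-65343917, were chosen after their values were seen, to show strong distal sequence found once in the genome.
Ccne1: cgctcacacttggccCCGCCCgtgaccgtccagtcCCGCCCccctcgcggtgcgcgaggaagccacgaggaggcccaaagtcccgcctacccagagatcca
Zfp395: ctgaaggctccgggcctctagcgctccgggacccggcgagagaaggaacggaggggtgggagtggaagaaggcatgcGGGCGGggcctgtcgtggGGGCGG
Both windows were rich in G and C, 71.3% and 72.3%, and held 2 copies of the Sp and Klf string (GGGCGG or CCGCCC on the plus strand). The windows near Wnt7b and Elovl5, not printed, had 70.3% and 76.2% G and C, with no match to the string near Wnt7b and 1 near Elovl5. Over all distal members the median GC content of the summit window was 50.2%, and over members within 500 bp of a start 63.2%.

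A protein-coding gene was called open when a member lay within 500 bp of any of its annotated starts. By this measure 14530 of 21938 protein-coding genes were open (66.2%), 13473 of them with peaks in 4 lists and 1057 in 3. Another 670 genes had peaks in 2 lists, 729 in 1 and 6009 in 0. The median open promoter stood at percentile 93.0 (interquartile range 82.0 to 97.0), and 891 open genes (6.13%) had a mean percentile under 50. Of the open genes, 846 had no peak in replicate 1. Promoters rich in CpG, with at least 50% GC and a CpG ratio of at least 0.6, were nearly always open (8689 of 9058, 95.9%), while the others were open in 5841 of 12880 cases (45.3%). Open shares were lower for long intergenic RNA genes (1147 of 5854, 19.6%) and antisense genes (1112 of 2959, 37.6%).

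Lineage genes were read against this background of 66.2%, in 13 lists of 5 to 30 genes. Housekeeping genes were open in 20 of 20 cases, with a median percentile of 96.1. Stem cell genes came close to them, with 29 of 30 open and a median of 90.8. Mature lineage lists lay below both. They ran from 7 of 18 open in the mast cell, basophil and eosinophil list to 15 of 18 in the megakaryocyte list. The megakaryocyte (83.3%), dendritic (72.2%) and T and NK cell (70.8%) lists lay above 66.2%. The neutrophil (60%), monocyte (55%), erythroid (47.8%), B cell (45%) and mast cell (38.9%) lists lay below it. In mature lineage lists, promoters not rich in CpG were open in 6 of 17 (mast cell) to 13 of 16 cases (megakaryocyte), against 45.3% over all such genes. Genes of non-blood tissues were open in 13 of 30 cases with a median percentile of 51.3. That count was 5 of 30 with the strongest 50000 peaks of each list or with peaks over at least 50% of a region, and 8 of 30 with peaks in 4 of 4 lists, while stem cell genes stayed at 27 or 28 of 30 under these settings. Some genes, Flt3, Fli1 and Tfrc among them, stood in a pair of lists each.

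**Figure D4:**
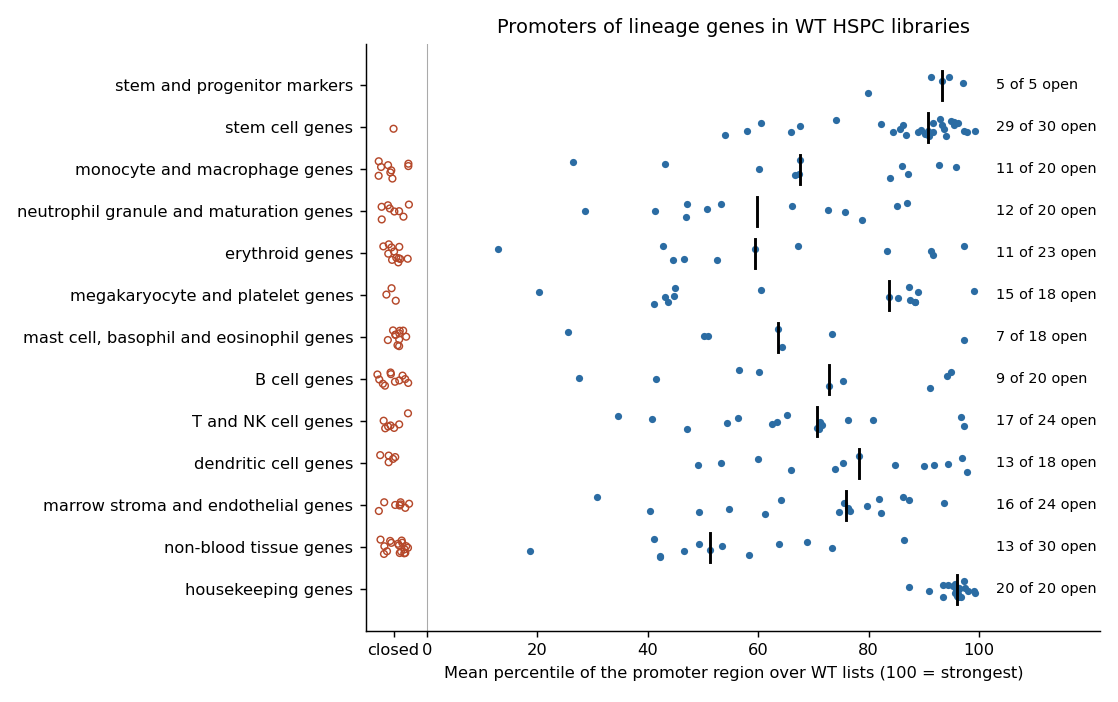
Promoters of the genes of 13 lists. Each filled point is an open gene at its mean percentile over the WT lists (horizontal axis, 100 is strongest), black bars are list medians, and open circles at the left are genes without an open promoter, spread vertically for legibility. Most stem cell genes and all housekeeping genes lie above 80, and open non-blood genes run from 18.8 to 86.4 and open neutrophil genes from 28.7 to 86.9.

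Many stem cell genes had strong promoters. Flt3, the receptor of lymphoid-primed progenitors, stood at 98.3, 96.1, 99.0 and 98.04, and Zfpm1, the Gata partner Fog1, had a mean of 97.4. Mecom (Evi1), Mllt3, Hlf and Meis1, factors tied to self-renewal, had means of 95.5, 94.9, 94.0 and 93.7. Surface proteins used to sort stem cells spanned a wide range. Kit, Flt3 and Cd34 were strong, with means of 97.2, 97.9 and 93.3, and Esam had a mean of 86.9. Some other genes of this kind were lower. Procr (EPCR) had a mean of 65.9, Cd48 one of 74.1, and Slamf1 (CD150) stood at 77.2, 63.3 and 62.3 in replicates 1, 3 and 4 with no peak in replicate 2. Ly6a, which encodes Sca-1, had no peak in replicate 1 and 56.1, 64.5 and 53.5 in the others. Tek (Tie2), the angiopoietin receptor, was the gene not called open, with peaks in replicates 3 and 4 only, and without replicate 1 all 30 were open. Of the 16 stem cell genes whose promoters were not rich in CpG, 15 were open.

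In the monocyte and macrophage list 11 of 20 genes were open. Irf8 and Klf4, transcription factors of the monocyte fate, stood at means of 95.8 ± 0.772 and 92.8 ± 0.744, and Cx3cr1 at 87.1. Macrophage genes were divided. Marco, Vsig4, Cd163 and Timd4 had no peak in any list, Clec4f had a peak in 1 list and C1qa and C1qb in 2. Cd68, Adgre1 and C1qc were open with peaks in 4 lists and means of 83.8, 67.6 and 67.4, and Mrc1 with peaks in 3 lists and a mean of 26.5. Csf1r, the receptor for M-CSF, was open but weak, with no peak in replicate 1 and 35.8, 46.1 and 47.5 in the others. In the neutrophil list 12 of 20 were open, led by Csf3r, the G-CSF receptor (82.3, 85.2, 89.2 and 90.8), and Gfi1, a repressor needed for granulocytes (79.8, 89.6, 84.1 and 87.0). Mpo, the myeloperoxidase of early granules, stood at 81.3, 79.9, 69.5 and 72.2. Of the granule proteases of the same stage, Ctsg (cathepsin G) was open at 56.9, 68.6, 68.0 and 71.3, while Elane had weak peaks in replicates 3 and 4 and Prtn3 a peak in replicate 4. Genes of maturing neutrophils were divided. Cebpe, Ngp, Ly6g and Retnlg had no peak in any list, and S100a9 and Lcn2 had peaks in 2 lists. Mmp9, Ltf and Cxcr2 were open with peaks in 4 lists and means of 72.6, 47.1 and 41.3, and Mmp8, S100a8 and Camp with peaks in 3 lists and means of 50.8, 47.0 and 28.7. Without replicate 1 the 2 counts were 15 of 20 each.

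In the erythroid list 11 of 23 genes were open. The strongest were Tfrc, the transferrin receptor, with a mean of 97.4, Car2, a carbonic anhydrase, with 91.7 ± 1.63, and Epor, the erythropoietin receptor, at 90.1, 89.1, 93.6 and 92.8. Gata1 had no peak in replicate 1 and stood at 59.5, 47.3 and 50.7 in the others, below Gata2 in each of these lists. Klf1, its partner in red cell genes, had no peak in any list, nor had Slc4a1 (band 3), Alas2, Rhag or Car1. Of the 6 globin genes in the list, Hbb-bs was open, at 15.0, 53.7, 51.5 and 66.0. Near-identical globin copies can share reads, so the value of a single globin gene is uncertain.

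In the megakaryocyte list 15 of 18 genes were open with a median of 83.7, and 11 of 18 at a −log10 q of 2 or more and 10 of 18 with peaks in 4 of 4 lists. Nfe2, the factor of platelet formation, stood at 99.6, 98.9, 99.7 and 98.5. Itgb3, Gp1ba, Itga2b (CD41), Gp9 and Pf4, all proteins of platelets, had means of 88.4, 88.4, 87.4, 87.4 and 85.4. Gp1bb, Selp, Treml1, Gp5 and Tubb1, also of platelets, were open at lower means of 44.9, 44.8, 43.6, 43.1 and 41.1. Vwf (40.5, 11.3 and 9.3 in replicates 1, 3 and 4) was the weakest, and Gp6, Ppbp and Clec1b had no peak in any list. When only the strongest 50000 peaks of each list were kept, 9 of 18 megakaryocyte, 6 of 20 neutrophil, 5 of 23 erythroid, 3 of 18 mast cell, basophil and eosinophil and 27 of 30 stem cell genes were open. In the mast cell, basophil and eosinophil list 7 of 18 were open. Mitf, a factor of mast and pigment cells, stood at a mean of 97.2 ± 0.889, and the protease genes Mcpt8 and Cpa3 were open with means of 63.6 and 50.2. The protease genes Mcpt4, Tpsb2, Tpsab1 and Cma1 had no peak in any list.

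Lymphoid genes were mixed. In the B cell list 9 of 20 were open, or 15 when a member within 3 kb of a start was enough and 5 with the strongest 50000 peaks. Bank1, Pax5 and Cr2 were strong, with means of 95.0, 94.2 and 91.1. Pax5, the factor of B cell commitment, stood at 93.9, 92.7, 95.4 and 94.8. Ebf1, which acts before it, stood at 44.8 in replicate 1 and at 82.8, 86.2 and 87.7 in the others. Genes of the pre-B cell receptor and of recombination were mixed. Vpreb1, Igll1, Rag2 and Dntt had no peak in any list, Vpreb2 and Cd79a had peaks in 2 lists and Vpreb3 in 1. Cd79b was open with a mean of 60.1, and Rag1 at 40.5, 45.4, 72.2 and 67.9. In the T and NK cell list 17 of 24 were open, and 11 with the strongest 50000 peaks or with 50% of a region covered. Lat, an adaptor of T cell receptor signalling, stood at 96.3, 95.4, 99.0 and 98.7, and Cd3d at 95.9, 96.4, 98.3 and 96.3. Cd3e, Cd3g, Cd8b1 and Ncr1 had no peak in any list, and Cd247, the zeta chain of the same receptor complex as Cd3d, had peaks in replicates 3 and 4 (27.6 and 27.8). Il7r had no peak in replicate 1 and 64.1, 84.4 and 80.3 in the others. Dendritic cell genes were open in 13 of 18 cases, led by Flt3, Tcf4 (mean 96.9), Bst2 (94.4) and the class II gene H2-Aa (91.9), with Xcr1 and Clec9a at no peak in any list.

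In the marrow stroma and endothelial list, of other cells in the marrow, 16 of 24 genes were open, near the share of all protein-coding genes (66.2%), with a median of 75.9 and list medians of 72.1, 78.7, 77.7 and 78.8 in replicates 1 to 4. Pdgfra (94.6, 95.3, 91.6 and 92.9), Runx2 (mean 87.3) and Pdgfrb (86.3) were the strongest, and the endothelial genes Pecam1, Sox17, Sox18, Kdr and Cdh5 had means from 76.3 to 82.2, with Tie1 and Emcn lower at 54.8 and 40.4. The niche genes Kitl, Cxcl12 and Lepr were open with means of 75.5, 49.2 and 30.8, as were Alpl (74.7) and Col1a2 (64.1). Col1a1, Col3a1, Bglap, Adipoq and Ibsp, products of bone and fat stroma, had no peak in any list. Among non-blood genes, Mbp, a protein of myelin, was the strongest at a mean of 86.4, followed by Pax6 (73.4) and Sox1 (68.9). The liver genes Alb, Apoa1, Ttr, Hnf4a and Afp had no peak in any list. Of the 13 open non-blood genes, 7 were among the 8 in the list with a CpG-rich promoter. What part other cells in the sort played in these values was not tested.

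Distal members were spread unevenly over genes. A gene had a median of 5 distal members within 100 kb of any of its starts (90th percentile 12), and 3752 genes (17.1%) had none. The most were at Pde4d, a phosphodiesterase that breaks down cyclic AMP, with 46. Gse1 had 39, Foxp1, a forkhead factor of lymphoid cells, 37, Hivep3 36, Rbfox3 35, and Cux1, Runx3 and Trio 34 each. Runx1 was among the 20 with 32, together with Akap13 and Itga9 (33 each), Rere (32), Elmo1 (31) and Pip4k2a, Prex1, Ptprj and Sgms1 (30 each). The length searched differed between these genes, since it grows with the number and spread of the starts. For Pde4d, with 12 starts, 1402 kb were searched and held 3.28 distal members per 100 kb, against a median of 2 over all genes. For Runx3, 232 kb held 14.7 per 100 kb, the densest of the group, and for Runx1 and Ptprj there were 9.68 and 9.70 per 100 kb.

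Each distal member was also assigned to its nearest protein-coding start within 100 kb. By nearest start Pde4d had 46 distal members, Gse1 34, Foxp1 and Runx1 32 each, Elmo1 31, and Cux1 and Itga9 27 each. S1pr1, the sphingosine-1-phosphate receptor of lymphocyte and progenitor egress, had 23, and Erg, an Ets factor of stem cells, and Smad3, of the TGF-beta pathway, 22 each. All the distal members counted for Runx1 were thus nearest to Runx1 itself. When a single window around the outermost start was searched instead, an alternative added after the data were seen, Ptprj and Runx3 led with 27 each, followed by Gpr183 with 26, Cux1 with 25 and a group with 24 that held S1pr1 and Socs3. Of the 20 genes first named, 3 remained among the top 20 of that list when ties at the cut were broken by name. Pip4k2a, with 23, was tied at the cut and left out by this rule. Within Pde4d, 43 of the 46 regions lay in introns, with a median percentile of 63.1 and the strongest at 94.0. A high number of distal regions did not go with a strong promoter in every case: Rbfox3, a neuronal splicing factor, had 35 distal members within 100 kb but a promoter at 20.9, 2.99, 21.01 and 30.1, and its distal count by nearest start was 22.

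The sequence under the summits differed between starts and distal sites. Short strings known from blood and promoter factors were searched on both strands in 100 bp either side of each summit, and in windows of the same size 1 kb away as a measure of the surrounding sequence. A match is letters, not binding, and some strings contain others: GGAAGT lies inside GAGGAAGT and CCGGAAGT. The general Ets string GGAAGT was in 34.2% of distal windows, 24.0% of windows within 500 bp of a start, 31.0% of all members and 11.8% of distal flanks. GAGGAAGT, the Spi1 form, was in 9.93% of distal windows, 4.28% at starts, 8.17% of all members and 1.29% of distal flanks. In the lists' own distal summits its share was 8.38, 9.41, 10.1 and 10.1% in replicates 1 to 4, a mean of 9.50 ± 0.811% (SD, n = 4), against 1.33, 1.31, 1.30 and 1.30% in their flanks. The Runx string TGTGGTT was in 12.99% of distal windows, 4.63% at starts and 5.24% of distal flanks. The flank and the summit ranges did not overlap over the lists for these 3 strings. This was also true of the less raised E-box, Cebp, AP-1, Irf and Myb strings given next.

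Other blood factor strings were less raised. The E-box CAGATG stood at 18.3% of distal windows against 15.8% of their flanks, Cebp (TTGCNNAA) at 10.1% against 7.70%, AP-1 (TGANTCA) at 9.21% against 6.03%, Irf (GAAANNGAA) at 8.03% against 6.65% and Myb (TAACNG) at 20.6% against 19.1%. The Gata string AGATAA was not raised, with 10.4% of distal windows against 10.8% of flanks, although it was present in the Kit and Gata2 windows printed above. GC content differed between summits and flanks, at a median of 50.2% against 45.8% for distal members, and its part in these shares was not tested. Of 8 blood strings counted together, 27.9% of distal windows held none against 50.4% of flanks, and 23.2% held 2 against 10.8%. Ctcf, the insulator factor, had its string in 7.91% of distal windows and 0.171% of their flanks, and among distal members the share was 8.10% in the strongest 5000 and 1.44% in the weakest 5000.

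Windows at starts were marked by another group. GGGCGG of Sp and Klf factors was in 50.4% of windows at starts and 8.15% of distal ones, Nrf1 (GCGCANGCG) in 7.63% and 0.415%, NF-Y (CCAATNNG) in 12.8% and 4.99%, the promoter Ets form CCGGAAGT in 4.57% and 0.677%, the CRE (TGACGTCA) in 2.16% and 0.359%, and Yy1 (AAGATGGCG) in 1.77% and 0.212%. Strings taken as controls, of factors known from other tissues, were rare: Hnf4 (CAAAGTCCA) in 0.230% of distal windows against 0.244% of flanks, and Mef2 (CTATTTTTA) in 0.590% against 0.482%. By the ratio of distal summits to flanks, Mef2 (1.22) did not stand below all the blood strings. It lay above the E-box (1.16), Irf (1.21) and Myb (1.07) and below Cebp (1.31) and AP-1 (1.53). Over the 22 strings, 17 were more frequent at distal summits than 1 kb away.

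**Figure D5:**
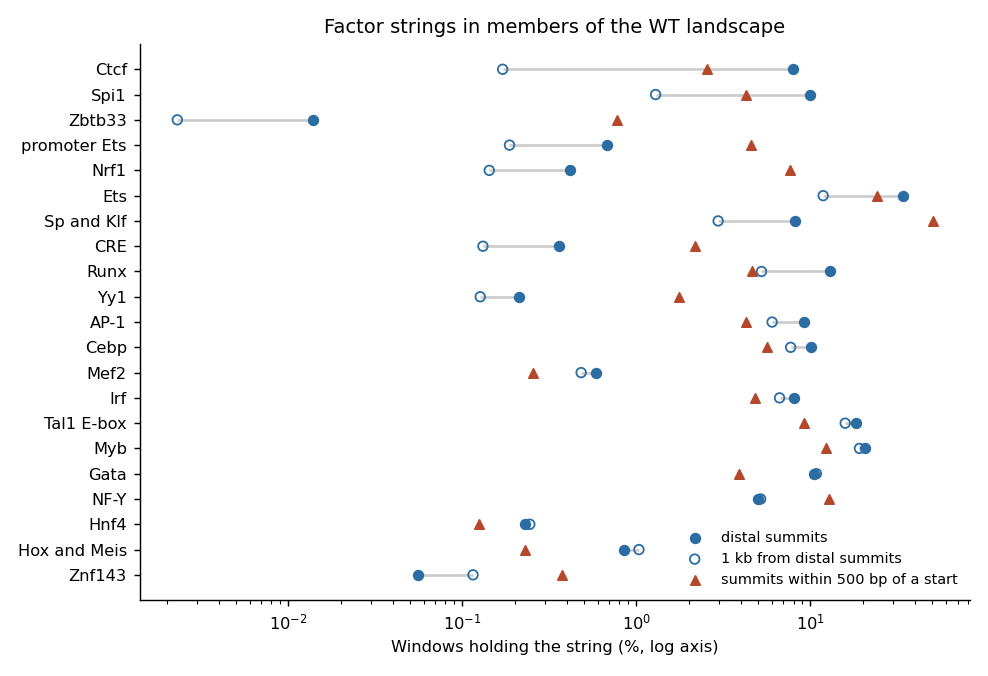
Share of windows of 100 bp either side of the point that hold each string (%, log axis), for distal summits (filled blue), points 1 kb from distal summits (open blue) and summits within 500 bp of a start (red triangles), ordered by the ratio of distal summits to their flanks. Rest is left out because its flank share is 0. Ctcf, Spi1, Ets and Runx are far above their flanks at distal summits, and Sp and Klf, Nrf1, CRE and Yy1 are highest at starts.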

How the data were processed

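ATAC-seq peak lists of the 4 WT libraries were used, with replicate numbers from the labels. Per the submitters' processing notes, the authors used cutadapt 1.9.1, Bowtie2 2.2.6 and MACS2 2.1.0 with the mm10 build. They removed duplicates and called peaks for each library. The deposited lists give each summit's fold enrichment, a ratio to local background, and the authors' −log10 p and −log10 q. All are relative to 1 library, so ranks within a list were compared, never values between lists. Between 330 and 482 peak numbers were absent from a list, for a reason not stated.

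Summits sharing an interval formed 1 peak, and peaks sharing at least 1 bp were merged. Starts came from GENCODE mouse release M21. Named genes were the markers, the 20 strongest promoter and 20 strongest distal regions by mean rank, the 20 genes with most distal regions by either count, and the extremes of each gene list. Other genes of these lists and of the alternatives were named after their values were seen, and some genes that met the rule are not reported here. The members and lists were chosen with earlier results of these data known. A single genotype gives no comparison of groups, so none was tested. Values of single lists were checked for a list apart with Dixon's ratio (critical value 0.829 for 4 lists). Copies were found with BLAST+ 2.17.0. Printed sequences were read from the mm10 reference. Scripts ran in Python 3.11.15 (pysam 0.24.0, scipy 1.17.1, matplotlib 3.10.9, pandas 2.3.3, numpy 2.4.6) and were tested on simulated data.

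Alternatives were the strongest 50000 peaks, only peaks at −log10 q 2 or higher, 50% of a region covered, 4 of 4 lists, merging over all 16 lists, other distances and windows, ranking by fold, replicates 1 and 2 or 3 and 4 alone, and leaving out each replicate. Leaving out regions of repeated 32-base words, the single search window and the agreement without a replicate were added after the data were seen.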

Additional observations from a re-analysis of the deposited data

Results flagged for a closer look

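Of 68 measures taken in each of the 4 WT lists, 10 had a list far from the other 3 by the gap of the extreme value over the whole range. For a single measure chance gives about 1 in 20. The measures are not independent, since some strings contain others and some lists share genes, so their number cannot be judged against that share. In 9 of the 10 the list was that of replicate 1. Its own summits near a start held the Ets string in 22.8% of windows (24.1 to 24.4% in the others), the Cebp string in 4.93% (5.55 to 5.59%), the Sp and Klf string in 53.4% (50.6 to 51.03%) and the Nrf1 string in 8.98% (7.66 to 7.74%). Its own distal summits held the Cebp string in 9.07% (10.1 to 10.3%), the Myb string in 19.7% (20.5% in each of the others) and the Sp and Klf string in 8.74% (8.13 to 8.23%). The median percentile of open B cell promoters was 55.1 in replicate 1 and 76.0 to 76.4 in the others, and that of the marrow stroma and endothelial genes 72.1 against 77.7 to 78.8. The remaining measure was the Hnf4 string near starts, in 0.140% of windows of replicate 3 and 0.116 to 0.120% elsewhere.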

How the results depend on the processing

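No paired analysis was possible because 1 genotype was described and no result came from a test. Of 331 values recomputed under an alternative, 250 moved by less than the spread between replicates or, for counts, by less than 1.5 times, and 81 moved further. The 74720 members became 42144 with the strongest 50000 peaks of each list, 44849 with 4 of 4 lists, and 78252 to 114088 when a replicate was left out and 2 of the other 3 lists were needed, the highest without replicate 1. The distal share of 58.1% became 55.2% at a −log10 q of at least 2, 49.5% with the strongest 50000 peaks, 54.7% with 50% of the region covered, 49.7% with 4 of 4 lists, 69.3% with a promoter distance of 1 kb, and 58.5 to 64.1% when a replicate was left out. Open genes numbered 14552 to 15145 and open list genes 178 to 199 when a replicate was left out. Of 143 recomputed list counts 11 moved by more than 1.5 times, 7 of them with the strongest 50000 peaks. Of the 20 genes with most distal regions, 8 remained with the strongest 50000 peaks, 3 with a single window around the outermost start, and 15 to 19 when a replicate was left out. Ties at the cut were broken by name, which left out Pip4k2a in the single window. Of the 20 strongest promoter regions, 0 remained when ordered by fold, 7 from replicates 1 and 2 alone, 6 from replicates 3 and 4 alone, and 10 to 14 when a replicate was left out. Of the 20 strongest distal regions, 10 remained when ordered by fold, 12 with regions left out whose median 32-base word was repeated or that held a mitochondrial word, and 18 to 20 when a replicate was left out. The lowest correlation between lists, 0.813, was 0.813 to 0.856 when a replicate was left out. The cause of these moves was not tested. Depth is unknown, so a site without a peak may lie below what a library could show.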

Other observations

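Gene families beyond the lineage lists were set beside 66.2% of all protein-coding genes. Potassium channel genes (62 of 94), genes named Gpr (48 of 73) and solute carrier genes (270 of 371) lay near that share, and collagen genes were open in 24 of 45 cases. Mitochondrial ribosomal protein genes were open in 78 of 78 cases and proteasome subunit genes in 39 of 40, the exception being Psmb11, a subunit of the thymic proteasome. Complex I subunit genes were open in 43 of 44 cases, without Ndufa4l2, and histone genes named Hist in 63 of 67. Genes of specialised tissues were seldom open: 18 of 1135 odorant receptor genes, 1 of 331 vomeronasal receptor genes (Vmn1r4), 0 of 57 keratin-associated protein genes, 0 of 42 beta-defensin genes and 0 of 35 bitter taste receptor genes. Hox genes were open in 30 of 39 cases but stood low, at a median percentile of 54.3, and Hoxb4 (mean 90.8) and Hoxa9 (82.3) of the stem cell list lay above that median.

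Between members of the autosomes and chromosome X, with chromosome ends and Y not counted, the longest stretch without a member was 9.72 Mb on chromosome X with 39 protein-coding genes, followed by 7.002 Mb on chromosome 2 with 3. A gap of 4.12 Mb on chromosome 7 held 65 vomeronasal receptor genes named Vmn1r.

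The order and spacing of the strings in the Gata2 region, CATCTG, 8 bases and AGATAA, were looked for in all members, a search chosen after that sequence was seen. The windows of 16 members held them at this spacing, 10 of them distal, and those of 0 to 5 members at each other spacing from 0 to 20 bases. In windows 1 kb away, 3 held them 8 bases apart and 0 to 5 at each other spacing. Besides Gata2 (mean percentile 92.9), the 16 included regions nearest to Noxa1 (95.6), Ldlrad3 (91.8), Spns2 (88.5) and Akap13 (78.7), 1 region 321373 bp from Runx1 (70.0) and the promoter of Epb42, a protein of the red cell membrane (42.8). The others lay nearest to Sv2b, Dapp1, Zfp609, Bcl2l1, Tbc1d7, Tbl1xr1, Zcchc7, St6galnac3 and Bbx, with mean percentiles from 24.8 to 69.4.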
